A study of Mus musculus with 39 samples.

Results

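RNA pulled down from mouse hindlimb muscle after 6 h of labelling, meant to hold the RNA made in that time, was compared with the steady-state RNA of the whole muscle, across all genes. The comparison took 8 of the 39 libraries of the series by their labels, 4 of RNA labelled in the living animal for 6 h and 4 of whole-muscle RNA, and 11746 of the 16979 genes of the deposited table could be tested. The series as a whole profiled muscle stem cells, both by label given in the living animal and in cells taken out of the tissue.

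The 6 h label libraries came from mice that were Pax7CreER/+ and UPRT HA/+ and received 4-thiouracil (4tU) 6 h before death. UPRT, a phosphoribosyltransferase that most mammalian cells use little, turns 4tU into a nucleotide that enters new RNA, and the thiol then lets that RNA be pulled down. Pax7 is the transcription factor that marks muscle stem cells (satellite cells), so the inducible Pax7 promoter allele is meant to confine UPRT, and with it the label, to those cells and their progeny. RNA was taken from the whole hindlimb muscle before the pull-down, although the labels name the 6 h samples as stem cells. The whole-muscle libraries held hindlimb RNA that was not pulled down; their labels give no 4tU treatment, and neither group received the polymerase inhibitor α-amanitin. Whether the whole-muscle RNA came from mice of the same genotype, whether the replicates were separate animals and whether any animal gave both a pull-down and an input is not stated in the labels, so the p-values measure the spread between these libraries, which may be technical. Libraries with 4tU given every 12 h for 1 d or 4 d before harvest served as a second reference. All were made from 500 pg of RNA with oligo(dT) priming, so polyadenylated RNA was read.

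As background, muscle is mostly multinucleate fibres, whose contractile and metabolic messages are abundant and long-lived. A short pulse of label instead weights each message by how much of it was made in the pulse. Messages with a fast turnover, such as those of immediate early genes, hormone-induced genes and the feedback regulators of signalling, are then expected to be enriched relative to their standing level, and stable messages depleted.

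Library depth ranged from 30933516 to 87375972 recovered reads in the 6 h label and from 41068178 to 102619074 in whole muscle. Replicates correlated across genes at r = 0.9964 to 0.9983 in the 6 h label and 0.9982 to 0.9991 in whole muscle, against 0.9053 to 0.9162 for pairs across the groups. The label was set against the markers of its tissue before any other result. Pax7 had 0.402, 0.282, 0.277 and 0.311 RPKM in the 6 h label, against 0.0768, 0.1001, 0.0978 and 0.08095 RPKM in whole muscle, and the 6 h label libraries were all above those of whole muscle, at levels under the 1 RPKM asked of a tested gene. Isolated muscle stem cells of the same table averaged 17.9 ± 1.20 RPKM of Pax7. Genes of the contractile apparatus of the fibre took 12.8 ± 0.0950% of the reads of the 6 h label and 20.3 ± 0.149% of those of whole muscle (SD, n = 4 each), against 0.431% in isolated stem cells. With fibre genes this abundant, the pull-down is not described below as RNA of stem cells. The part of unlabelled RNA in it was not tested. In bulk RNA of this kind, fewer cells of a type and less RNA per cell cannot be told apart. Uprt, here the mouse's own gene, had 0.624, 0.6896, 0.6103 and 0.654 RPKM in the 6 h label, against 0.977, 0.806, 0.947 and 0.952 RPKM in whole muscle. Its labelled libraries were all the lower, at levels below those tested.

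Most genes differed between the 6 h label and whole muscle. At an adjusted p under 0.05 (limma on log2(RPKM + 0.5), Benjamini-Hochberg over all genes tested), 5357 genes were higher in the 6 h label, or 45.6% of those tested, and 5220 were lower, or 44.4%. A change of 2-fold or more was called for 1590 genes that were higher (13.5%) and 1442 that were lower (12.3%). The libraries of the groups did not overlap for 10125 genes (86.2%). Since a call alone is this common, the gene groups below are read by the size of their change, beside the median log2 change of all genes, 0.02, and the median absolute change, 0.62. The median also varied with the level in whole muscle, from 0.97 for genes under 1 RPKM to -1.21 above 1000 RPKM. The lists were not matched for level. The 95% interval of a single gene's log2 change had a median half-width of 0.11. Of the calls, 50.6% were higher on the library scaling that the authors deposited; 40.96% were with median-of-ratios factors, 65.4% with all reads as the library size and 77.4% when repeat-derived reads were left out of that size. These scalings moved the median of all genes by -0.21, 0.30 and 0.58, and list medians that turned sign under one of them are given with that scaling. Folds were computed after adding 0.5 RPKM and so understate the change of low genes. Errors of log2 changes are standard errors.

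**Figure D1:**
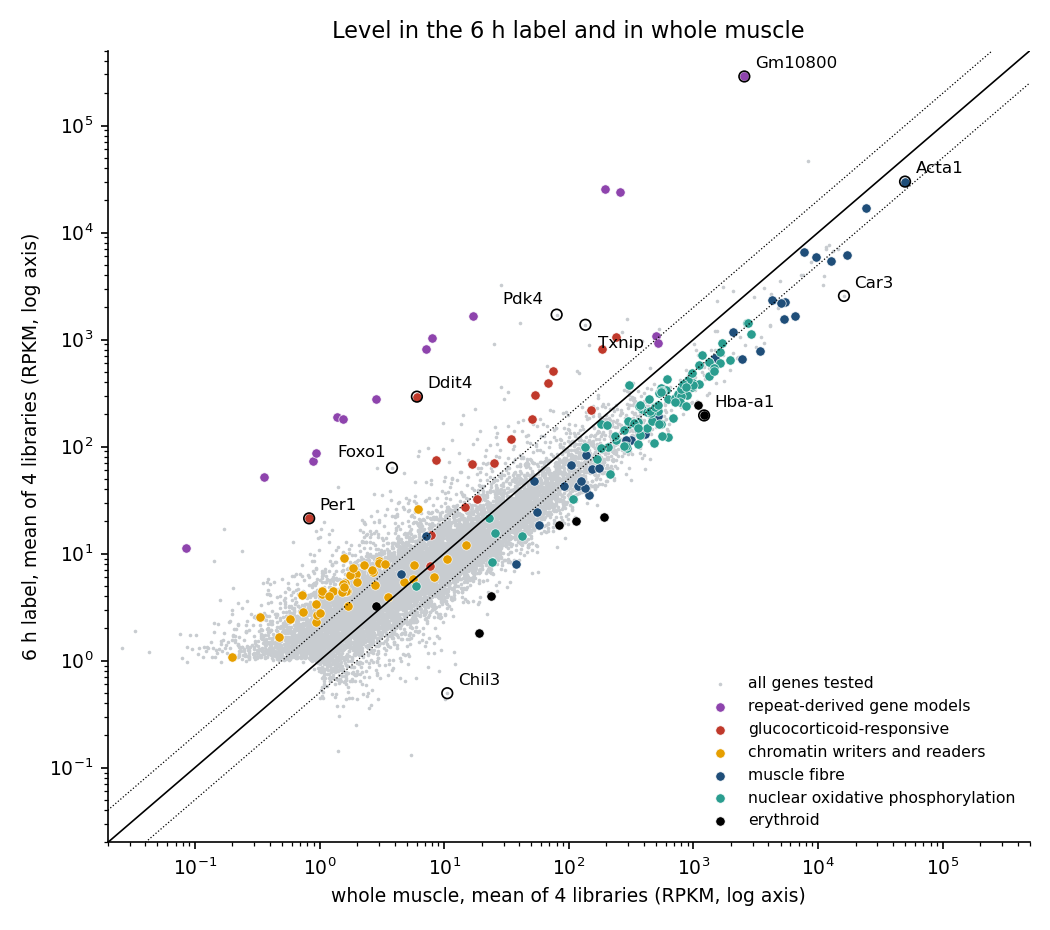
Mean RPKM of each tested gene in the 6 h label (vertical, log axis) against whole muscle (horizontal, log axis), with the line of equal levels and dotted lines at 2-fold; coloured points are members of the listed gene groups. Genes of the fibre and of oxidative phosphorylation lie below the line at the high end, and Ddit4, Pdk4 and Txnip lie far above it.

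Leaving aside gene models known only by number, which held the repeat-derived models described further on, the largest rise was in Ddit4. Ddit4, an inhibitor of mTORC1 induced by glucocorticoids and energy stress, had 236, 331, 315 and 290.4 RPKM in the 6 h label, against 5.63, 5.84, 6.39 and 6.32 RPKM in whole muscle (log2 change 5.48 ± 0.086, 44.5-fold, adjusted p = 6.26e-14). The lowest labelled library was far above every whole-muscle library. Pdk4, the kinase that shuts off pyruvate dehydrogenase and so spares glucose, had 1612, 1779, 1727 and 1724 RPKM in the 6 h label, against 76.3, 82.6, 83.2 and 77.5 RPKM in whole muscle (log2 change 4.41 ± 0.040, 21.3-fold, adjusted p = 2.93e-15). Its labelled libraries lay close together, all far above whole muscle. The other 13 of the 15 largest rises spanned 11.3-fold to 16.4-fold. They held the transcription factors Nr4a3 (15.00-fold), Foxo1 (14.8-fold), Sox4 (12.7-fold) and Maff (11.6-fold), the clock repressor Per1 and the elongation factor Ell2 (11.4-fold). Also among them were Rhob, a small GTPase whose message decays fast (13.5-fold), Chac1, which degrades glutathione (13.4-fold), the arrestin-domain gene Arrdc2 (12.3-fold) and Odf3l2 (12.3-fold). Pln, the inhibitor of the sarcoplasmic calcium pump, averaged 36.4 ± 2.004 RPKM in the 6 h label and 2.75 ± 0.248 RPKM in whole muscle, but its gene overlaps Cep85l on the opposite strand. They also included the short hairpin model of the muscle miRNA gene Mir133a-1, which averaged 166 ± 7.41 RPKM in the 6 h label and 9.87 ± 2.41 RPKM in whole muscle. It lies within its host transcript Mir133a-1hg and inside Mib1 on the opposite strand, and as few as 20 reads carried its value in a whole-muscle library. The libraries of the groups do not overlap for any of the 15, since the rule that named them asked for that.

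Genes known to be induced by glucocorticoids, the adrenal steroids that act through a nuclear receptor and drive fuel mobilisation in muscle, were the group with the highest median among the regulatory lists. All 17 were tested; 16 were higher, 12 of them by 2-fold or more, and Cebpb was not called. Their median log2 change was 1.99, against 0.02 for all genes, and they took 0.878 ± 0.0658% of the reads of the 6 h label and 0.167 ± 0.00292% of those of whole muscle (SD, n = 4 each). Sgk1, a kinase that regulates ion transport and growth, had 472, 543, 521 and 494 RPKM in the 6 h label, against 72.7, 72.01, 77.4 and 75.2 RPKM in whole muscle (log2 change 2.76 ± 0.043, 6.78-fold, adjusted p = 6.26e-14). Tsc22d3, or GILZ, which carries anti-inflammatory effects of the steroid, averaged 818 ± 29.8 RPKM in the 6 h label and 185 ± 5.07 RPKM in whole muscle (log2 change 2.14 ± 0.034, 4.42-fold, adjusted p = 6.69e-14). No labelled library of either gene reached down to the whole-muscle range. The metallothionein Mt1, which binds zinc and is also induced by metals, averaged 1057 ± 37.7 RPKM in the 6 h label and 239 ± 2.31 RPKM in whole muscle, and the transcription factors Zbtb16, Cebpd and Klf9 were 8.23, 5.58 and 3.36-fold higher. Fkbp5, the receptor's chaperone and feedback inhibitor, was 2.73-fold higher (log2 change 1.45 ± 0.083, adjusted p = 2.51e-09).

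The 300 bases around a start site, 250 before it and 50 after it, are shown for 3 of the genes that rose, because each holds a motif of a regulator discussed here. The motifs, all of which were searched on both strands, were the core of the glucocorticoid receptor half-site pair, ACANNNTGT, the forkhead motif GTAAACA of the FoxO factors, the E-box CACGTG of the clock factors and the cyclic AMP response element TGACGTCA. The sequences are from RefSeq on GRCm38.p6, with all matches of the 4 motifs in capitals. The Txnip window is chr3:96557707-96558006 on the plus strand, with ACANNNTGT 170 bases and GTAAACA 121 bases before the start. One of the 6 Sgk1 windows, chr10:21993640-21993939 on the plus strand, holds CACGTG 246 bases and ACANNNTGT 186 bases before the start; 1 other Sgk1 window holds the ACANNNTGT motif too. One of the 2 Per1 windows, chr11:69098699-69098998 on the plus strand, holds CACGTG 166 bases before the start.
Txnip: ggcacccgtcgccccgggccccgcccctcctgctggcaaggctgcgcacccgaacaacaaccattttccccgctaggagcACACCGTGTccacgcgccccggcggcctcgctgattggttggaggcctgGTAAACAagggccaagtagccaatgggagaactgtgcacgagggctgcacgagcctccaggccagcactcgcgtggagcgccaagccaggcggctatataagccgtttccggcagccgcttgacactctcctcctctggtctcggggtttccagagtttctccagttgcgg
Sgk1: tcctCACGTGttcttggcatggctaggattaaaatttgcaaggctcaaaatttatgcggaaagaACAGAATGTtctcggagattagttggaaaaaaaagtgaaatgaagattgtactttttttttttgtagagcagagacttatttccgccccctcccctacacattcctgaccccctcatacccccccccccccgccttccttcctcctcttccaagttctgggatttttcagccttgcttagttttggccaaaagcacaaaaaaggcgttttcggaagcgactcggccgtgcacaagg
Per1: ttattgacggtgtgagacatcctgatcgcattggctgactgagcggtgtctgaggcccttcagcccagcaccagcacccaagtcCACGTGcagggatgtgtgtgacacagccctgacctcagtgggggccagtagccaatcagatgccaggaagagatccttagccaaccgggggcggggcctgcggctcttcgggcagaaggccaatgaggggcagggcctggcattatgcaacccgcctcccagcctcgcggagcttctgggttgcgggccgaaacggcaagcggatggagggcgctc
Across the 11272 windows of 8776 tested genes, ACANNNTGT was in 4.24%, GTAAACA in 2.54%, CACGTG in 10.1% and TGACGTCA in 3.1%. Among genes at least 2-fold higher the shares were 5.24%, 2.69%, 9.93% and 3.52%, and among genes at least 2-fold lower they were 4.25%, 3.01%, 10% and 2.71%. In the glucocorticoid-responsive list 5 of 24 windows (20.8%) held ACANNNTGT, in 4 of 14 genes. In the clock list 6 of 20 windows (30%) held CACGTG, in 5 of 15 genes. Windows of the same gene are not separate observations. ACANNNTGT was in 1 of 15 windows (6.67%) of the 15 largest rises and in 2 of 7 (28.6%) of the 15 largest falls. A match is a run of letters in a window and shows no binding.

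Genes of muscle wasting and of fuel choice were higher in the majority, with exceptions. The FoxO factors, which insulin signalling keeps out of the nucleus, switch on ubiquitin ligases and autophagy genes in wasting muscle. Of the 20 genes of the FoxO and atrophy list 13 were higher and 7 lower, with a median log2 change of 0.68, and 6 were at least 2-fold higher. Foxo1 itself had 53.9, 67.3, 65.6 and 66.9 RPKM in the 6 h label, against 3.26, 3.81, 4.36 and 3.83 RPKM in whole muscle. Trim63, or MuRF1, the ubiquitin ligase that marks contractile proteins for degradation, had 1418, 1662, 1616 and 1589 RPKM in the 6 h label, against 278, 304, 297 and 302 RPKM in whole muscle (log2 change 2.41 ± 0.049, 5.31-fold, adjusted p = 2.39e-13). Both had every labelled library above every whole-muscle library. Fbxo32, or atrogin-1, the other ligase of the programme, averaged 157 ± 3.98 RPKM in the 6 h label and 112 ± 4.73 RPKM in whole muscle, with a log2 change of 0.49 that was called in the fit of these 8 libraries (adjusted p = 2.85e-08) but not with all groups in 1 fit (adjusted p = 0.0824), and the autophagy gene Gabarapl1 was 2.34-fold higher. Among the 27 genes of the fuel switch list 18 were higher and 7 lower (median 0.48). Txnip, which restrains glucose uptake, had 1265, 1428, 1429.6 and 1376 RPKM in the 6 h label, against 131, 139, 139 and 134 RPKM in whole muscle (log2 change 3.33 ± 0.042, 10.1-fold, adjusted p = 4.95e-14). Ucp3, an uncoupling protein of the muscle mitochondrion, was 9.797-fold higher, while the fatty-acid oxidation enzyme Acadvl was 3.71-fold lower at 53.9 ± 1.12 RPKM in the 6 h label and 201.3 ± 5.36 RPKM in whole muscle; Acadvl overlaps Dvl2 on the opposite strand. Genes of fat synthesis were mostly lower, 14 of 24 against 8 higher, with a median of -0.21 that turned positive with all reads as the library size. The desaturase Scd1 was 3.21-fold lower and the citrate lyase Acly 2.84-fold lower.

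Most immediate early genes, which answer a stimulus within minutes without new protein, were higher, but Egr1 was slightly lower and Ier2 was not called. The list shares Per1, Nr4a3, Rhob and Maff with the largest rises. Of 34 listed, 29 were tested, 25 were higher, 17 of them 2-fold or more, and 2 were lower (Egr1 and the kinase gene Plk2); the median log2 change was 1.28. Since genes that pass the filter through the 6 h label alone had to be higher, it matters that 23 of the 29 reached the level tested in whole muscle by itself. Jun, a subunit of the AP-1 factor, had 200.8, 234, 223 and 214 RPKM in the 6 h label, against 70.4, 69.7, 69.1 and 71.4 RPKM in whole muscle (log2 change 1.63 ± 0.042, 3.09-fold, adjusted p = 1.58e-12). Fos, its partner, had 15.6, 15.2, 15.7 and 15.1 RPKM in the 6 h label, against 9.11, 11.3, 10.4 and 9.87 RPKM in whole muscle (log2 change 0.58 ± 0.055, 1.49-fold, adjusted p = 3.92e-07). The groups do not overlap for either gene. Egr1 had 4.75, 5.14, 4.94 and 4.22 RPKM in the 6 h label, against 5.08, 5.59, 5.64 and 5.27 RPKM in whole muscle (log2 change -0.17 ± 0.059, adjusted p = 0.0185), and its libraries overlap between the groups. The call was lost without labelled replicate 4 (adjusted p = 0.0636) and without whole-muscle replicate 2 (0.052) or 3 (0.0521). Its sign turned under other scalings, with log2 changes of 0.16 with all reads as the library size and 0.42 when repeat-derived reads were also left out. Ier2 had 18.4, 19.6, 17.6 and 18.4 RPKM in the 6 h label, against 17.99, 19.4, 20.3 and 19.1 RPKM in whole muscle and was not called (log2 change -0.053 ± 0.044, adjusted p = 0.272), with a direction that also turned under those scalings. In contrast Atf3, a stress-induced repressor, and Ctgf, a matricellular target of YAP, were 3.61 and 4.13-fold higher.

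Genes that shorten the life of messages and signals were higher as well. Of 11 genes that recruit the deadenylation or decay machinery 9 were higher, 8 by 2-fold or more, and 1, Cnot8, was lower (median 1.52). Tob1, an antiproliferative protein that binds the CCR4-NOT deadenylase, had 772, 992, 910.4 and 892 RPKM in the 6 h label, against 140.3, 146, 155 and 137 RPKM in whole muscle (log2 change 2.62 ± 0.066, 6.13-fold, adjusted p = 1.22e-12), and its relative Tob2 was 7.05-fold higher. Zfp36, which binds AU-rich elements in 3′ ends, was 3.78-fold higher and Zfp36l2 3.12-fold. Of 15 tested feedback regulators of ERK signalling 10 were higher and 3 lower (median 0.90), and 12 of the 15 reached the tested level in whole muscle by itself. The EGF receptor inhibitor Errfi1 was 3.97-fold and the Sprouty gene Spry1 2.55-fold higher, while the stress-kinase phosphatase Dusp10 was 3.34-fold lower. Krüppel-like factors, zinc-finger regulators of metabolism and differentiation, were higher for 9 of 12 tested and lower for 1 (median 1.12), with Klf4, Klf6 and Klf15 at 3.54, 3.38 and 3.56-fold. The list of Gadd45 genes, CDK inhibitors and D cyclins, which pools genes that slow and genes that drive the cell cycle, was mixed. In it 6 of 14 were higher and 7 lower, with a median of -0.07 that turned positive with all reads as the library size. In that list Gadd45a and Gadd45g, which respond to stress, were 4.64 and 4.33-fold higher. Of the list of Id genes and BMP or TGF-beta feedback 9 of 10 tested were higher (median 0.75), among them the bHLH antagonist Id3 at 1.96-fold.

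**Figure D2:**
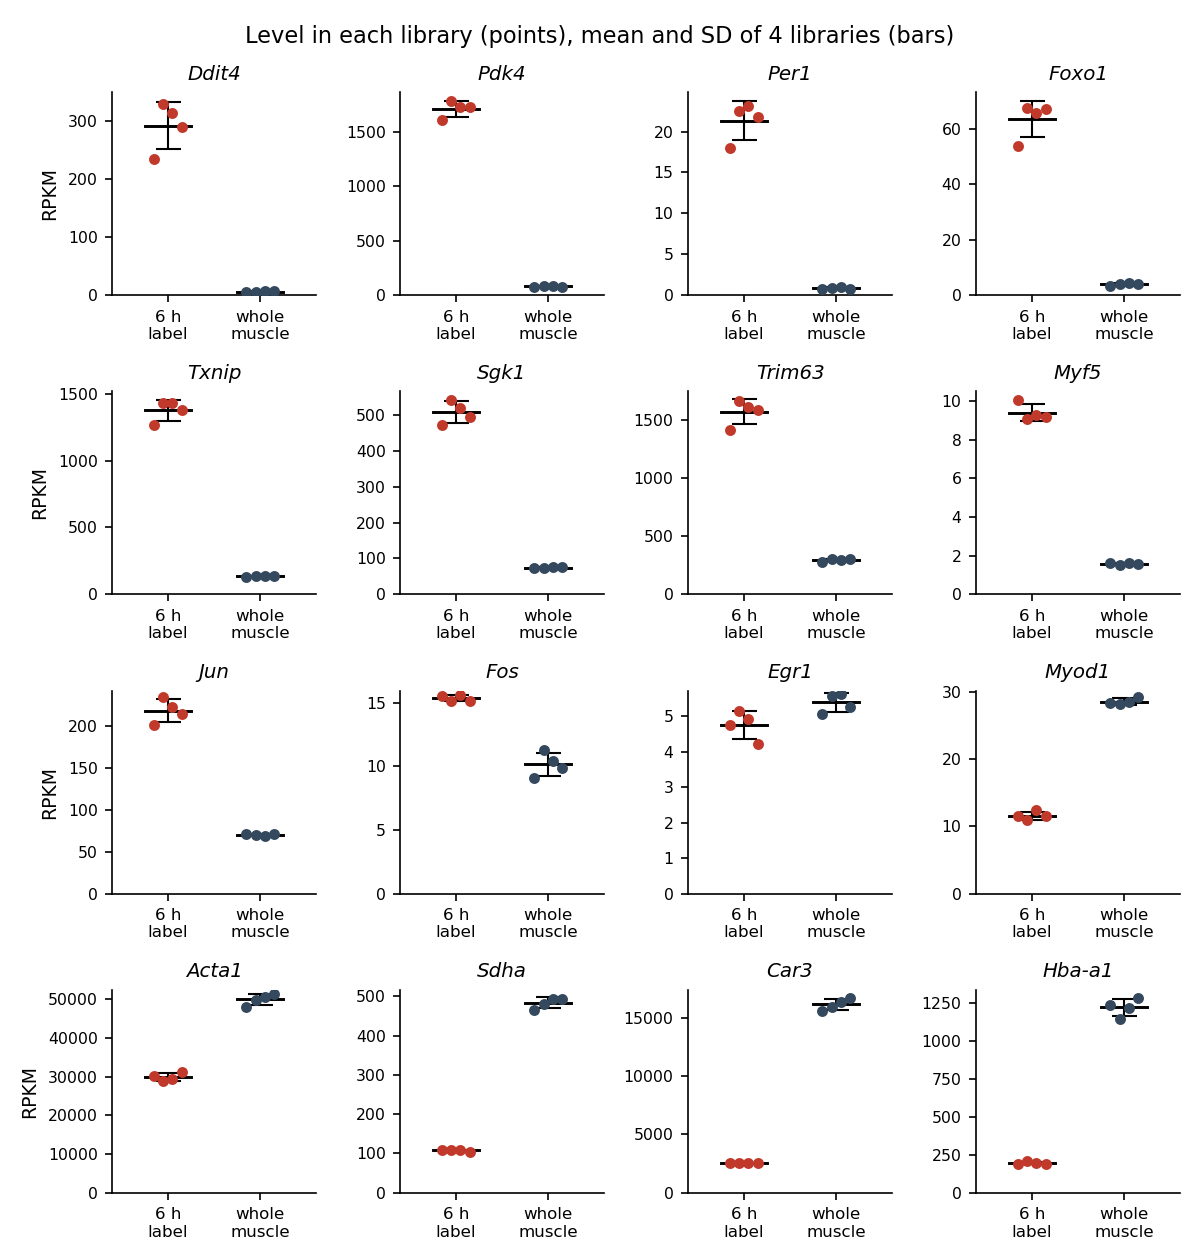
RPKM of 16 genes in each library (vertical axes from 0), 4 of the 6 h label on the left and 4 of whole muscle on the right of each panel, with the mean and SD as bars. Ddit4, Pdk4, Per1, Foxo1, Txnip, Sgk1, Trim63, Myf5, Jun and Fos have every labelled library above whole muscle, Egr1 overlaps, and Myod1, Acta1, Sdha, Car3 and Hba-a1 have every labelled library below.

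Clock genes moved in opposite directions. In the circadian clock, Arntl and Clock drive Per, Cry and the output factors, and Per and Cry then repress Arntl and Clock. Of 18 genes tested 13 were higher and 4 lower (median 0.77), and 15 of the 18 reached the tested level in whole muscle by itself. Per1 had 17.9, 22.5, 23.2 and 21.8 RPKM in the 6 h label, against 0.726, 0.822, 0.959 and 0.795 RPKM in whole muscle (log2 change 4.04 ± 0.078, 16.4-fold, adjusted p = 1.79e-13). Ciart, a repressor of the clock, was 9.36-fold higher, Per3 4.81-fold, Per2 5.74-fold and the output factor Dbp 5.76-fold, at 19.7 ± 2.32 RPKM in the 6 h label and 3.003 ± 0.254 RPKM in whole muscle. Dbp overlaps Sphk2 on the opposite strand. The activator Arntl had 13.8, 15.8, 14.02 and 13.9 RPKM in the 6 h label, against 23.1, 24.4, 23.8 and 23.4 RPKM in whole muscle (log2 change -0.70 ± 0.045, 1.63-fold, adjusted p = 7.63e-09). Every labelled library of Arntl was below whole muscle, but without repeat-derived reads in the library size it was not called (log2 change -0.07, adjusted p = 0.14). The repressor Cry1 was 2.14-fold lower. The hour of harvest is not given for either group, so time of day cannot be told apart from the labelling in these values.

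Messages of chromatin regulators and splicing factors were mostly higher. Of 43 genes of chromatin writers and readers 39 were higher, 33 by 2-fold or more, and 3 were lower; the median was 1.30, and 34 of the 43 reached the tested level in whole muscle by itself. Brd2, a bromodomain reader of acetylated histones, averaged 26.2 ± 1.22 RPKM in the 6 h label and 6.16 ± 0.271 RPKM in whole muscle (log2 change 2.01 ± 0.045, 4.02-fold, adjusted p = 4.95e-13); it overlaps H2-DMa on the opposite strand. Splicing factors were higher for 26 of 40 and lower for 11 (median 0.59). Clk1, a kinase that controls splicing and is itself stored as a retained-intron nuclear RNA, was 3.91-fold higher, the helicase Ddx17, which overlaps Kdelr3 on the opposite strand, 6.103-fold and Rsrp1 2.48-fold, while Hnrnpa2b1 was 2.502-fold lower. Of 278 tested genes named as Zfp zinc-finger proteins 197 were higher and 47 lower (median 0.56), 51 by 2-fold or more upward and 3 downward; 237 of the 278 reached the tested level in whole muscle by itself. Among 26 genes of RNA polymerase II and its elongation factors 13 were higher and 13 lower, with a median of -0.03 that turned positive with all reads as the library size. Hexim1, which holds the elongation kinase P-TEFb inactive, was 4.296-fold higher.

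Long non-coding RNAs that stay in the nucleus and hosts of small nucleolar RNAs were higher for 13 of 16 tested and lower for 2 (median 0.63). Neat1, the scaffold of paraspeckles, was 2.68-fold higher (log2 change 1.42 ± 0.047, adjusted p = 1.25e-11), and the snoRNA host Zfas1 3.63-fold, although Zfas1 overlaps Znfx1 on the opposite strand. The miRNA host Mir22hg had 102, 111, 105 and 98.8 RPKM in the 6 h label, against 23.1, 22.6, 23.7 and 23.04 RPKM in whole muscle (log2 change 2.15 ± 0.038, 4.43-fold, adjusted p = 9.06e-14). All its labelled libraries were above all of whole muscle. Its hairpin lies at chr11:75463716-75463810 on the plus strand of GRCm38.p6, and the mature arms, from RefSeq and with the seed (bases 2 to 8) in capitals, show which miRNA the transcript carries; the arms do not share a seed.
mmu-miR-22-5p: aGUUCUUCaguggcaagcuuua
mmu-miR-22-3p: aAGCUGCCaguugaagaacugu
The reads are of the polyadenylated host and say nothing of the mature miRNA. The hairpin model of the second such gene, Mir133a-2, averaged 46.5 ± 4.36 RPKM in the 6 h label and 5.802 ± 1.98 RPKM in whole muscle, with as few as 13 reads in a whole-muscle library. Its second whole-muscle library held the highest of the 4 values by a wide margin, at 8.77 RPKM, and was still far below the labelled libraries.

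Markers of satellite cells, the cells the allele was meant to label, did not move together. As a list they took 0.287% of the reads of the 6 h label and 0.392% of those of whole muscle. That share is carried largely by Des, a listed gene that is also a structural gene of the fibre. Des averaged 674 ± 21.6 RPKM in the 6 h label and 1497 ± 39.5 RPKM in whole muscle. The lower share is therefore not read as a fall of satellite-cell messages, and the share without Des was not computed. Des and the neuromuscular junction gene Rapsn, also listed, were both lower by 2-fold or more. Of 28 listed, 24 were tested, 16 were higher, 10 by 2-fold or more, and 7 were lower, 4 by 2-fold or more (median 0.56); 20 of the 24 reached the tested level in whole muscle by itself. Myf5, the earliest myogenic factor, had 10.1, 9.06, 9.295 and 9.16 RPKM in the 6 h label, against 1.603, 1.53, 1.598 and 1.58 RPKM in whole muscle (log2 change 2.25 ± 0.046, 4.76-fold, adjusted p = 2.57e-13). Myod1, the factor of committed myoblasts, had 11.5, 10.9, 12.4 and 11.5 RPKM in the 6 h label, against 28.3, 28.1, 28.5 and 29.2 RPKM in whole muscle (log2 change -1.27 ± 0.041, 2.41-fold, adjusted p = 1.02e-11). The groups do not overlap for either, in opposite directions. Sdc4, a surface proteoglycan of satellite cells that endothelial cells also make, was 6.24-fold and the lectin Chodl 4.57-fold higher, while Cdh15, the M-cadherin of the satellite cell niche, was 1.83-fold lower. Notch signalling keeps satellite cells quiescent: of 20 tested genes of the pathway 14 were higher and 3 lower (median 0.82), but only 13 reached the tested level in whole muscle by itself. The receptor Notch2 averaged 2.81 ± 0.127 RPKM in the 6 h label and 0.612 ± 0.0186 RPKM in whole muscle, the DNA-binding factor Rbpj was 1.88-fold and the co-activator Maml1 3.87-fold higher. Genes of myogenic differentiation were lower for 8 of 13 tested and higher for 4, with a median of -0.44 that turned positive when repeat-derived reads were left out of the library size. Mef2c, a muscle enhancer factor, was 3.36-fold lower and the growth inhibitor Mstn 2.78-fold lower.

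Endothelial markers were higher for 17 of 22 tested and lower for 4 (median 0.59), 21 of them at the tested level in whole muscle by itself. Rgcc, a cell-cycle regulator abundant in capillaries, had 856, 851, 860.2 and 892 RPKM in the 6 h label, against 307, 294, 309 and 332 RPKM in whole muscle (log2 change 1.48 ± 0.038, 2.79-fold, adjusted p = 1.51e-12). Every labelled library was above every whole-muscle one. Sox18, a vascular transcription factor, was 2.604-fold higher. These are markers of a cell type that the allele was not meant to label, and their part in the rise of other lists was not tested.

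**Figure D3:**
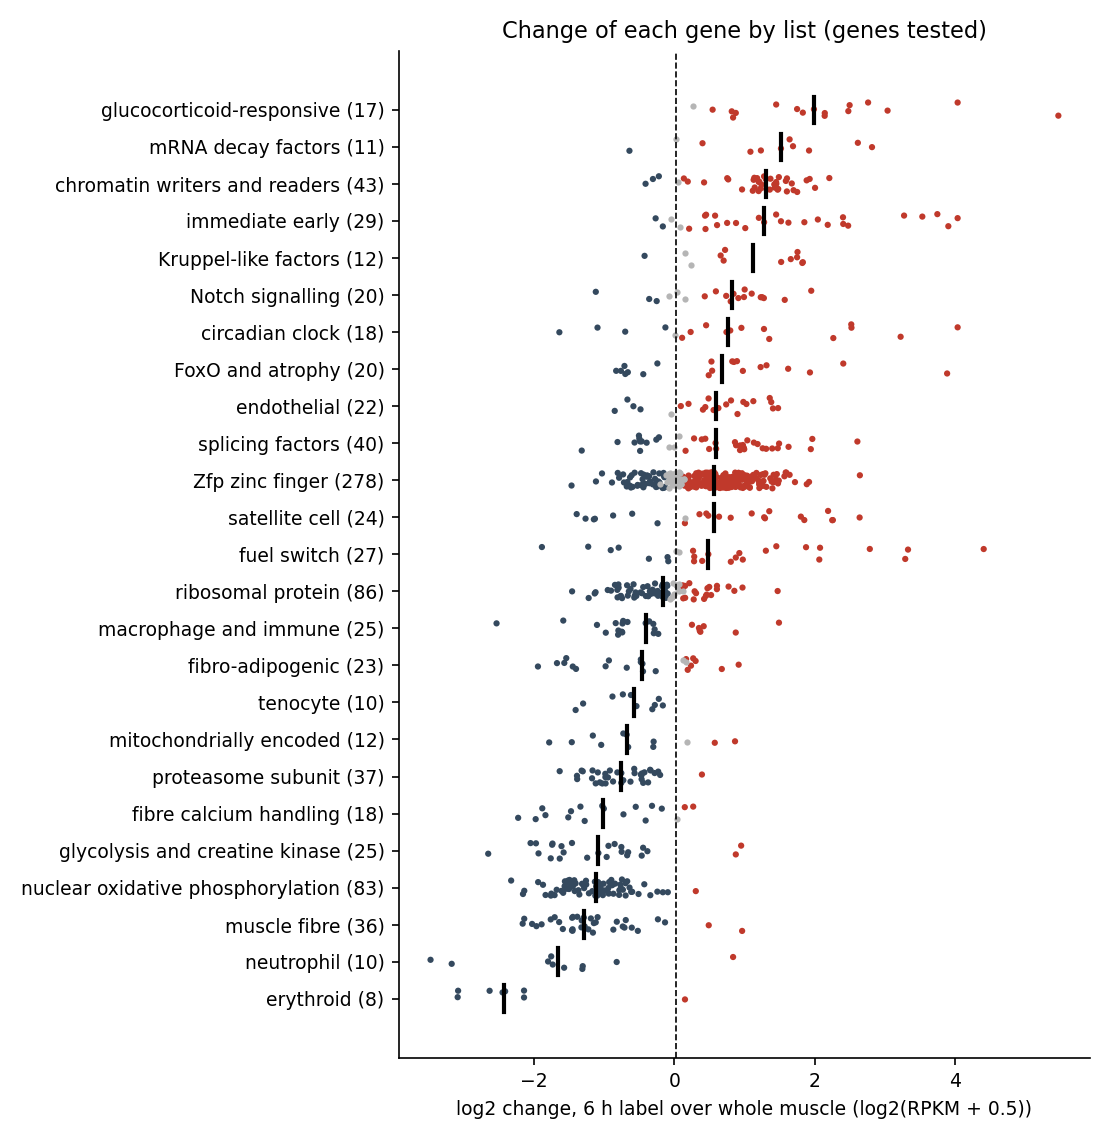
Log2 change of each tested gene, 6 h label over whole muscle, in 25 gene lists (number tested in brackets). Points are genes, red where called higher, dark where called lower and grey where not called; black bars are list medians, from 1.99 for the glucocorticoid-responsive genes to -2.43 for the erythroid genes, and the dashed line is the median of all genes at 0.02.

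The messages of the contractile fibre were lower in the label. Of 36 fibre genes 34 were lower, 25 by 2-fold or more, and 2 were higher (median -1.29). Acta1, the skeletal actin, had 30196, 28765, 29499.5 and 31295 RPKM in the 6 h label, against 48010.3, 49892, 50549.8 and 51213 RPKM in whole muscle (log2 change -0.74 ± 0.045, 1.67-fold, adjusted p = 5.02e-09). Ckm, the muscle creatine kinase, averaged 7653 ± 275 RPKM in the 6 h label and 12215 ± 218 RPKM in whole muscle (log2 change -0.68 ± 0.039, 1.597-fold, adjusted p = 2.46e-09). Both were lower in every labelled library, with changes smaller than the median of the list. With all groups in 1 fit neither was called (adjusted p = 0.154 for Acta1 and 0.2 for Ckm), and without repeat-derived reads in the library size the log2 change of Ckm was -0.026. Actn3, the α-actinin of fast fibres, was 3.92-fold lower and the myosin-binding protein Mybpc2 3.72-fold. The dystrophin gene Dmd was 1.403-fold higher. Genes that store and release calcium in the fibre were lower for 15 of 18 and higher for 2 (median -1.02). Trdn, the triadin of the release complex, was 4.69-fold lower and the calcium store protein Casq1 3.696-fold.

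Genes of energy metabolism were lower too. Of 25 genes of glycolysis and creatine kinase 23 were lower and 2 higher (median -1.09), and they took 5.73% of reads in the 6 h label against 11.3% in whole muscle. Car3, the carbonic anhydrase of slow fibres and fat, had 2593, 2563, 2532 and 2547 RPKM in the 6 h label, against 15572, 15932, 16390.5 and 16698 RPKM in whole muscle (log2 change -2.66 ± 0.035, 6.31-fold, adjusted p = 4.95e-14). No labelled library came near the whole-muscle range. Pkm, the pyruvate kinase, was 3.93-fold and the mitochondrial creatine kinase Ckmt2 3.84-fold lower. Of 83 nuclear genes of oxidative phosphorylation 82 were lower, 55 by 2-fold or more, and 1 was higher (median -1.12). Sdha, the catalytic subunit of complex II, had 108, 109.7, 108 and 105 RPKM in the 6 h label, against 465, 479.8, 493 and 494 RPKM in whole muscle (log2 change -2.16 ± 0.031, 4.47-fold, adjusted p = 4.95e-14). Of the 12 genes encoded in mitochondrial DNA 9 were lower and 2 higher (median -0.67). CYTB was 2.06-fold and COX1 1.66-fold lower, the last not called without repeat-derived reads in the library size (adjusted p = 0.0525), while ND5 and ND6 were 1.49 and 1.82-fold higher. ND5 and ND6 lie on opposite strands and share bases, and the sources used here do not say whether reads were counted by strand.

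Genes of red cells and neutrophils had the lowest medians of all lists. Of 8 tested erythroid genes 7 were lower, each by 2-fold or more, and 1 was higher (median -2.43). The α-globin gene Hba-a1 had 191, 207, 198 and 186 RPKM in the 6 h label, against 1236, 1140.0, 1218 and 1280.2 RPKM in whole muscle (log2 change -2.64 ± 0.042, 6.22-fold, adjusted p = 6.69e-14). The copies Hba-a2 and Hbb-b2 were 8.53 and 5.47-fold lower, with the caution that reads of near-identical globin copies can be assigned to the wrong one. Bpgm, the red-cell enzyme of 2,3-bisphosphoglycerate, was 4.43-fold lower. Of 10 tested neutrophil genes 9 were lower, 8 by 2-fold or more, and Lcn2, which is also on the glucocorticoid list, was higher (median -1.66). Chil3, a chitinase-like protein of myeloid cells, had 0.514, 0.385, 0.508 and 0.576 RPKM in the 6 h label, against 10.9, 10.4, 10.9 and 10.2 RPKM in whole muscle (log2 change -3.48 ± 0.061, 11.2-fold, adjusted p = 9.61e-14). The granule gene Ngp was 9.05-fold and the alarmins S100a8 and S100a9 2.48 and 3.38-fold lower. Markers of macrophages and other immune cells were lower for 18 of 25 and higher for 7, with a median of -0.41 that turned positive when repeat-derived reads were left out of the library size.

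Among the 15 largest falls, Chil3 came first. Besides Chil3, Ngp and Hba-a2 they held Igha, the constant region of immunoglobulin A, at 0.1299 ± 0.0874 RPKM in the 6 h label and 5.41 ± 0.798 RPKM in whole muscle, with a single read in 1 labelled library. The γ-synuclein gene Sncg was 6.71-fold lower, Glycam1, a ligand of L-selectin in lymph node vessels, 6.98-fold, and Spon2 and Pm20d2 7.23 and 7.31-fold. Also lower were the imprinted gene Nnat (6.504-fold, overlapping Blcap on the other strand), the peptide-processing enzyme Cpe (6.36-fold), the protein kinase A inhibitor Pkia (6.61-fold) and Car3. They also included the mitochondrial tRNA genes mt-Tt and mt-Tf, at 6.699 ± 3.52 RPKM in the 6 h label and 56.6 ± 6.38 RPKM in whole muscle for mt-Tt; they are so short that few reads carry their values.

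The connective tissue lists were lower on balance. Markers of fibro-adipogenic cells were lower for 14 of 23 and higher for 7, with a median of -0.46 that turned positive when repeat-derived reads were left out of the library size. The matrix proteoglycans Lum and Dcn were 3.86 and 3.196-fold lower, at 259 ± 9.600 RPKM in the 6 h label and 829 ± 26.6 RPKM in whole muscle for Dcn. All 10 tested tenocyte markers were lower (median -0.58, positive only without repeat-derived reads). Adipocyte markers were split, 7 of 16 higher and 7 lower, with a median of 0.003 that turned negative with median-of-ratios factors. The lipid-droplet protein Plin4 was 9.44-fold higher, with a gene that overlaps Hdgfl2 on the opposite strand, and the secreted protease Cfd 3.804-fold lower.

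Housekeeping lists separated by kind. Proteasome subunits were lower for 36 of 37, 11 by 2-fold or more, and higher for 1 (median -0.76). The regulatory subunit Psmd2 had 56.1, 55.2, 53.5 and 53.1 RPKM in the 6 h label, against 163, 168, 173 and 178 RPKM in whole muscle (log2 change -1.64 ± 0.035, 3.11-fold, adjusted p = 3.42e-13), with no overlap, and the ATPase Psmc4 was 2.48-fold lower. Ribosomal protein genes stayed close to the median of all genes: of 86 tested 52 were lower and 22 higher, with a median of -0.17 that turned positive with all reads as the library size. Rpl3l, the striated-muscle copy of Rpl3, was 1.801-fold lower. Heat shock genes were lower for 18 of 25 and higher for 6, with a median of -0.59 that turned positive when repeat-derived reads were left out; the small chaperone Cryab, abundant in fibres, was 2.97-fold lower.

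One group of gene models stood apart from all of these. The 15 tested models derived from repeats were all higher, 14 by 2-fold or more (median 6.46). In whole muscle by itself 11 of the 15 reached the tested level. The models took 18.4 ± 2.44% of the reads of the 6 h label against 0.258 ± 0.0140% in whole muscle (SD, n = 4 each). Gm10800, a predicted gene made of repeated sequence, took 16.4, 13.0, 14.2 and 17.5% of the reads of the labelled libraries, and 0.1001 to 0.1096% in whole muscle. It was 111-fold higher (log2 change 6.80 ± 0.096, adjusted p = 4.95e-14), and Gm10718 was 120.0-fold. The models share sequence, so reads could be assigned to any of them and they are not separate observations. Their share moves with the group. With all reads as the library size 6608 genes were higher and 3501 lower, and with those reads then left out of it 8308 were higher and 2425 lower.

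The change varied with the length of the gene model and with the level in whole muscle. With the genes in 5 equal classes by gene model length, the shortest class (56 to 1881 bases) had a median log2 change of -0.37, and the next ones had -0.20, -0.02, 0.16 and, in the longest (5989 to 116824 bases), 0.52. By the number of copies of the AU-rich heptamer TATTTAT in the 3′ UTR, a sequence that marks unstable messages, the medians were -0.12 for none, 0.19 for 1, 0.30 for 2 and 0.46 for 3 or more (7747, 2130, 732 and 421 genes; 93.9% of tested genes had an annotated 3′ UTR). Longer gene models held more copies. Within the longest class the medians were 0.45, 0.53, 0.58 and 0.71 in the same order. Within the second class they were -0.24, -0.17, -0.17 and -0.32, so that no order was seen there. The shortest class had -0.50, -0.19, -0.21 and -0.0007, the last from 15 genes. The third class had -0.11, 0.11, 0.01 and 0.39, and the fourth 0.10, 0.23, 0.25 and 0.33. Genes at 100 to 1000 RPKM in whole muscle had a median of -1.03 and the 91 genes above 1000 RPKM one of -1.21. The 1159 genes under 1 RPKM there had 0.97, but they passed the filter mainly through the 6 h label and so could hardly be lower. The level in whole muscle is, however, also the denominator of the change. The fibre, glycolysis and oxidative phosphorylation lists, with medians of -1.29, -1.09 and -1.12, were near the abundant genes in general. The 124 long intergenic non-coding RNAs tested had a median of 0.87 and the 118 antisense transcripts 0.66, against -0.01 for 11069 protein-coding genes; many non-coding genes are low, and those that passed the filter through the 6 h label alone had to be higher. In 5 equal classes by the share of uridine in the transcript, from lowest to highest, the medians were -0.08, -0.06, -0.002, 0.009 and 0.13. Only the 6 h label was pulled down, and the part of the pull-down in the trend with length was not tested. These are descriptions across genes, which are not independent replicates.

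**Figure D4:**
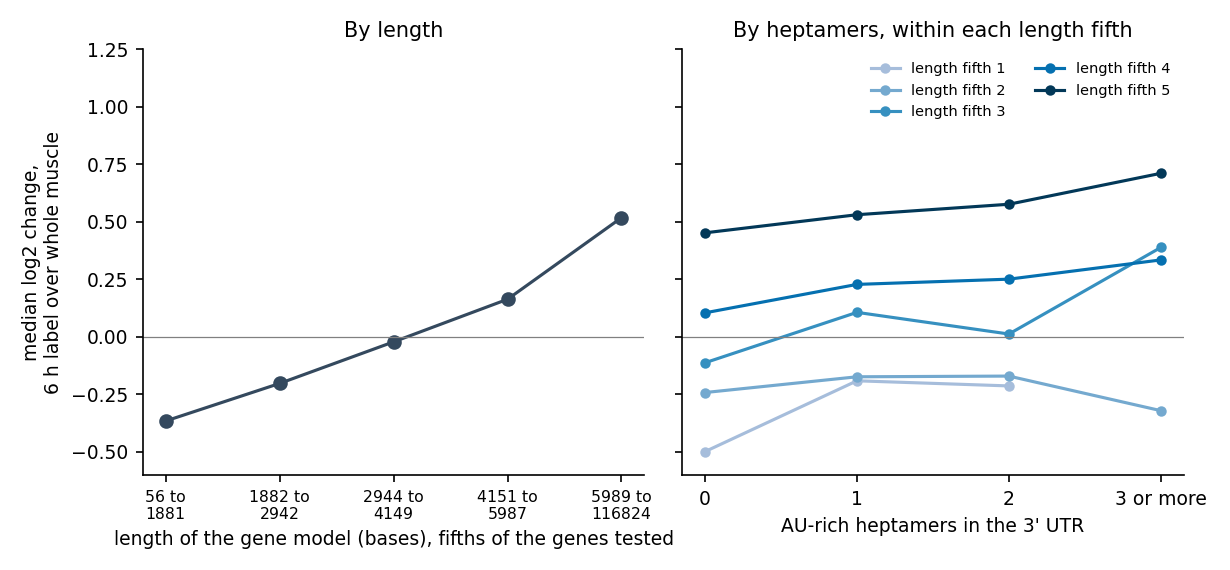
Median log2 change, 6 h label over whole muscle, by class of gene model length, 5 classes of equal size (left) and by number of AU-rich heptamers in the 3′ UTR within each length class (right; classes under 20 genes not drawn). The median climbs with length, -0.37, -0.20, -0.02, 0.16 and 0.52, and within the longest class with the number of heptamers, 0.45 to 0.71.

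The comparison with longer labelling asked whether the same genes stood out when 4tU was present for 1 d or 4 d. Of 11822 genes tested the 6 h label was higher than the 1 d label for 5913 (50.0%) and lower for 4275 (36.2%); against the 4 d label, of 11975 genes 6306 (52.7%) were higher and 4317 (36.1%) lower. Ddit4 averaged 293 RPKM in the 6 h label, 12.2 after 1 d of labelling and 10.5 after 4 d, and was 22.96-fold and 26.7-fold higher in the 6 h label (limma, adjusted over all genes). Pdk4 averaged 1711 RPKM in the 6 h label, 303 after 1 d of labelling and 47.6 after 4 d, against 79.9 in whole muscle. Sgk1 averaged 508 RPKM in the 6 h label, 52.4 after 1 d of labelling and 67.5 after 4 d, against 74.3 in whole muscle. Acta1 averaged 29939 RPKM in the 6 h label, 60351 after 1 d of labelling and 60577 after 4 d, and was 2.02-fold lower in the 6 h label than in either. Hba-a1 averaged 195 RPKM in the 6 h label, 479 after 1 d of labelling and 1603 after 4 d, against 1219 in whole muscle.

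By list, 16 of the 17 glucocorticoid-responsive genes were higher in the 6 h label than in the 4 d label and none was lower; against the 1 d label 16 were higher and 1 lower. Of 29 immediate early genes 25 were higher and 2 lower than in the 4 d label. The fibre list was lower for 34 of 36 genes and higher for 2 against each of the longer labels, and oxidative phosphorylation for 82 of 83 against each. Ribosomal proteins were lower than in the 4 d label for 84 of 87 genes, with a median log2 change of -0.81. Over the same 4 whole-muscle libraries, which the 3 labels share as their reference, the glucocorticoid-responsive list had medians of 1.99, 0.14 and 0.00 at 6 h, 1 d and 4 d, the immediate early list 1.28, 0.17 and -0.06, the chromatin list 1.30, 0.35 and 0.32, and all genes 0.02, -0.17 and -0.20. The fibre list had -1.29, -0.09 and -0.22, oxidative phosphorylation -1.12, -0.25 and -0.24, erythroid genes -2.43, -1.42 and 0.35, and neutrophil genes -1.66, -0.24 and 0.55. Duration of labelling is not the one difference between these groups, since the longer labels also took repeated injections, and the roles of the number of injections and of labelling time cannot be told apart.

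**Figure D5:**
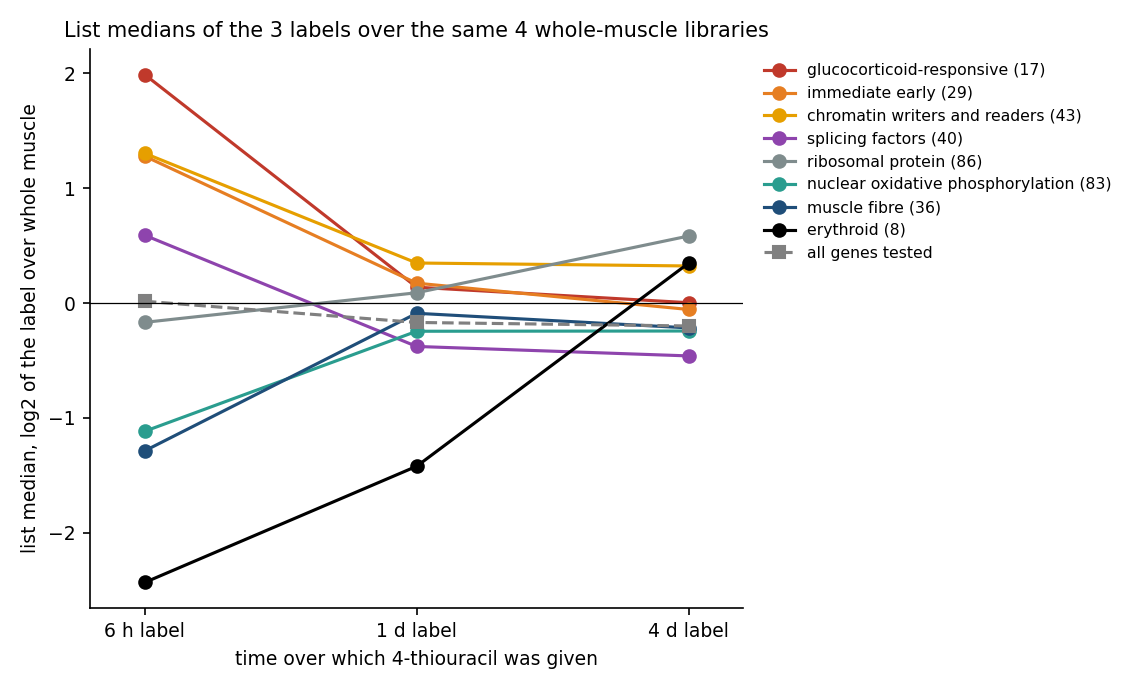
Median log2 change of 8 gene lists and of all genes in the 6 h, 1 d and 4 d labels, each over the same 4 whole-muscle libraries. The lists that are high at 6 h (glucocorticoid-responsive 1.99, chromatin 1.30, immediate early 1.28) are nearer to 0 in the longer labels. The erythroid list is below whole muscle at 6 h and above it at 4 d.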

How the data were processed

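Per the submitters' processing notes, reads were trimmed with Trim Galore, aligned with STAR to mm10, counted per gene with featureCounts (Subread) and scaled with edgeR. The sources used here do not give versions, strand setting or annotation. The authors deposited RPKM per gene and library, scaled by effective library sizes (0.767 to 0.833 of the reads in the 6 h label, 0.612 to 0.649 in whole muscle). Multiplied by gene length, 100% of the values in these libraries were whole reads within 0.1 read, which gave the depths and the added scalings. The deposited table lists 16979 genes; 1488 have no symbol, of which 1350 were named from the annotation by gene ID. No value column was left unmapped.

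A gene was tested if 3 or more of the 8 libraries reached 1 RPKM. Tests were run with limma 3.58.1 (R 4.3.3; trend) on log2(RPKM + 0.5), with Benjamini-Hochberg adjustment over all genes tested and calls under 0.05; the code was tested on simulated data. The members and gene lists were chosen with earlier results of these data known. The text names up to 15 largest rises and 15 largest falls (mean of 5 RPKM or more, libraries not overlapping, no gene known only by number), the members of a list with the smallest adjusted p (up to 4), and in every case Acta1, Ckm, Egr1, Fos, Gm10800, Jun, Myf5, Myod1, Pax7 and Uprt. Mir133a-2, Fkbp5, Zbtb16, Klf9, Cebpd, Fbxo32, Ier2, Per2, Dbp, Arntl, Cry1, Mir22hg, Cdh15, Dmd and ND5, and single members named only by direction, were named after their values were seen. Some genes that this rule names are not reported here. Alternatives changed the pseudocount, filter, scaling, test, libraries fitted and a replicate block. Overlaps on the opposite strand are given beside some genes. Jun also overlaps Junos, COX1 mt-Ts1 and Dmd Tsga8, and many others, Txnip and Foxo1 among them, overlap gene models known only by number or clone name. Intervals cover the spread between libraries.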

Additional observations from a re-analysis of the deposited data

Results flagged for a closer look

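Among 242 gene-by-group sets of 4 libraries checked with Dixon's test, 13 held a library that stood apart; at this threshold chance gives about 5%. In the 6 h label, replicate 1 was the low one for Foxo1 (53.9 RPKM, the others 65.6 to 67.3), Maff (11.8, the others 17.8 to 17.9), Fkbp5 (61.2, the others 71.9 to 73.7) and COX1 (4967, the others 5449 to 5506), and the high one for Pkia (66.3, the others 59.3 to 60.2) and mt-Tt (11.9, the others 4.31 to 5.43). Replicate 2 of the label was high for Arntl (15.8, the others 13.78 to 14.02) and low for Hexim1 (9.86, the others 10.90 to 10.96), and replicate 4 was high for Dbp (23.2, the others 18.1 to 18.8). In whole muscle, replicate 1 was low for Ucp3 (30.7, the others 32.6 to 32.9), replicate 2 was high for Mir133a-2 (8.77, the others 4.69 to 4.90), and replicate 3 was high for Ddx17 (3.67, the others 3.21 to 3.27) and Pkia (426, the others 401 to 404). Each stayed on its own side of the other group.

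The labels of different duration differed in 10623 genes between 6 h and 4 d and in 10188 between 6 h and 1 d, by limma at an adjusted p under 0.05.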

How the results depend on the processing

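Against whole muscle, the counts of genes higher and lower stayed within 1.5 times the reported ones under the other pseudocounts, median-of-ratios factors (4320 and 6227), all reads as library size (6608 and 3501), limma-voom on recovered reads (5354 and 5237) and all groups in 1 fit (4149 and 3910). Genes higher numbered 8452 with no filter, 2570 with a filter of 5 RPKM and 8308 with all reads other than repeat-derived ones as library size; genes lower numbered 2425 without repeat-derived reads. Against the 4 d label, 3386 were higher with a filter of 5 RPKM, and 7220 were lower with no filter and 2446 without repeat-derived reads. Against the 1 d label, 3022 were higher with a filter of 5 RPKM, and 6740 were lower with no filter, 2258 without repeat-derived reads, and 2749 where all groups were fitted together. The filters change how many genes are tested, and the cause of the other moves was not tested. Leaving out 1 replicate gave 5157 to 5372 genes higher and 5082 to 5213 lower than whole muscle, 6129 to 6292 and 4176 to 4284 against the 4 d label, and 5680 to 5950 and 4164 to 4230 against the 1 d label.

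Egr1 reversed, to 0.16 (log2, adjusted p = 0.0433) with all reads as library size and 0.42 without repeat-derived reads, as did Ier2, which was not called, to 0.29 and 0.58. Egr1 lost its call without labelled replicate 4 and without whole-muscle replicates 2 or 3. With all groups in 1 fit Fbxo32, Acta1, Ckm and Egr1 lost their calls, and without repeat-derived reads Arntl, Ckm and COX1 did. The numbers of the replicates were not used as pairs in the reported fit. Deviations of same-numbered 6 h and whole-muscle libraries correlated at 0.016 to 0.163, and those of differently numbered ones at -0.223 to 0.141. Whether same-numbered libraries belong together was not tested further. The replicate block gave 5390 genes higher and 5253 lower than whole muscle, 6327 and 4328 against the 4 d label, and 5907 and 4295 against the 1 d label. Pax7 and Uprt were left out of the reported test by its filter of 1 RPKM.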

Other observations

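Further lists of cell types and pathways are given here for the 6 h label relative to whole muscle. Of 25 tested interferon-induced genes 17 were lower and 6 higher (median log2 change -0.45, positive when repeat-derived reads were left out of the library size); against the 4 d label 24 of 27 were lower and 2 higher, and against the 1 d label 17 of 25 were higher and 5 lower. Genes of ribosome biogenesis were lower for 19 of 26 and higher for 5 (median -0.44, positive under the same scaling), and translation factors for 17 and 6 of 26 (median -0.35, positive with all reads as the library size). Of 12 tested neuromuscular junction genes 8 were lower and 3 higher (median -0.37), and of 11 Schwann and glial markers 7 were lower and 2 higher (median -0.44); both medians turned positive without repeat-derived reads.

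Smooth muscle and pericyte markers were lower for 7 of 15 and higher for 4 (median -0.08, positive with all reads as the library size), and genes of uracil and uridine salvage, through which the label enters RNA, were lower for 9 of 13 tested and higher for 3 (median -0.66). Collagen genes were higher for 9 of 16 tested and lower for 6 (median 0.29), although 43 are in the table. Proliferation genes were higher for 12 of 19 tested and lower for 4 (median 0.31), with 13 at the tested level in whole muscle by itself. The integrated stress response list was higher for 11 of 21 and lower for 10 (median 0.09), NF-kB and cytokine genes for 15 and 10 of 26 (median 0.16), and imprinted growth regulators for 6 and 5 of 12 (median 0.10); these 3 medians turned negative with median-of-ratios factors.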
